A study of Mus musculus with 6 samples.

Results

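The insulin-like growth factor genes described here are 9 members of 1 signalling family, measured in cortical cells of mouse embryos whose mothers received phenobarbital or saline. They are the ligand gene Igf1, the receptor genes Igf1r and Insr, the receptor substrate genes Irs1 and Irs2, and the binding protein genes Igfbp2, Igfbp3, Igfbp4 and Igfbp5. A probe belonged to the set if the RefSeq accession on the array matched 1 of these symbols. This gave 16 probes out of 55681 on the array, for 9 of the 20145 genes that could be matched to a symbol. The rule itself uses no measured value, though the members were chosen with earlier results of these data known. The phenobarbital group holds 3 arrays from C57BL/6N embryos of dams injected with 80 mg/kg phenobarbital, from a stock of 8 mg/mL in saline, given as pairs of injections spaced 6 h apart between embryonic days 10 and 11. The control group holds 3 arrays from embryos of saline-injected dams of the same strain. In both groups the embryonic cortex (day 12 by the protocol, E12.5 by the labels) was dissociated and plated on polyornithine and fibronectin, and RNA was isolated 4 h later. The drug was given to the dam, so the embryos' own exposure is not stated. Whether replicates are separate litters or cultures is not stated in the labels. The p-values therefore measure no more than the spread among these arrays, which may be technical.

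IGF1 and IGF2 are secreted peptides that bind the receptor tyrosine kinase IGF1R and, for IGF2, also the insulin receptor. The activated receptors phosphorylate the adaptors IRS1 and IRS2, which recruit PI3 kinase and so switch on Akt and mTOR. IGF-binding proteins carry the ligands outside the cell, hold them away from receptors, and release them when cut by proteases such as PAPP-A. In the developing cortex the pathway is known for promoting proliferation and survival of progenitor cells, with IGF reaching the ventricular surface partly through the cerebrospinal fluid.

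Values are log2 of the processed array signal minus the array's own 75th percentile, so that 0 is the level of a spot at that percentile and each unit is a doubling. The 75th percentile itself was 1802 to 1853 intensity units on phenobarbital arrays and 1116 to 1286 on control arrays, with a two-sided p of 0.1 in an exact permutation test, the lowest possible for 3 against 3. Control replicate 1 shared a slide with all 3 phenobarbital arrays, and control replicates 2 and 3 were on a slide each. Between 62.8% and 68.7% of spots were well above background. Control replicate 2 stood apart: its Pearson's r with the other controls, across genes, which are not independent, was 0.983 and 0.988, against 0.996 between control replicates 1 and 3. The label of cortical progenitors was checked on 11 radial glia and progenitor markers, all 11 of which were well above background on every array. The markers of neurons, mural cells and meninges, endothelium, microglia and red blood cells, 8, 13, 12, 11 and 11 genes, were also above background on every array, so RNA of other cell types was present in both groups. In such bulk RNA, fewer cells of a type and less RNA per cell cannot be told apart.

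All 16 member probes were well above background on all 6 arrays, none was saturated, and all passed the filter on dim probes. Groups were compared with limma, adjusting by Benjamini-Hochberg with a threshold of 0.05, in a fit over 25303 names represented by their brightest probe and in a fit over all 34672 probes that passed. In the fit over names, 1 of the 9 members changed: Igfbp4 fell, none rose and 8 did not pass. Across all names 16.7% were called, 6.24% as rises and 10.5% as falls, so the members' count is close to the background. In the fit over probes, 1 of the 16 member probes passed, an Igf1 probe that fell, against 15.7% of all probes (6.96% as rises, 8.74% as falls). At an unadjusted p below 0.05 there were 3 of 9 members, beside 35.7% of all names, and 5 of 16 member probes, beside 34.9% of all probes. The groups did not overlap for 4 of 9 members, where this held for 44.1% of all names, and for 6 of 16 probes, where it held for 43.7% of all probes. The members' median log2 fold change was 0.02, beside -0.16 for all names tested.

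**Figure D1:**
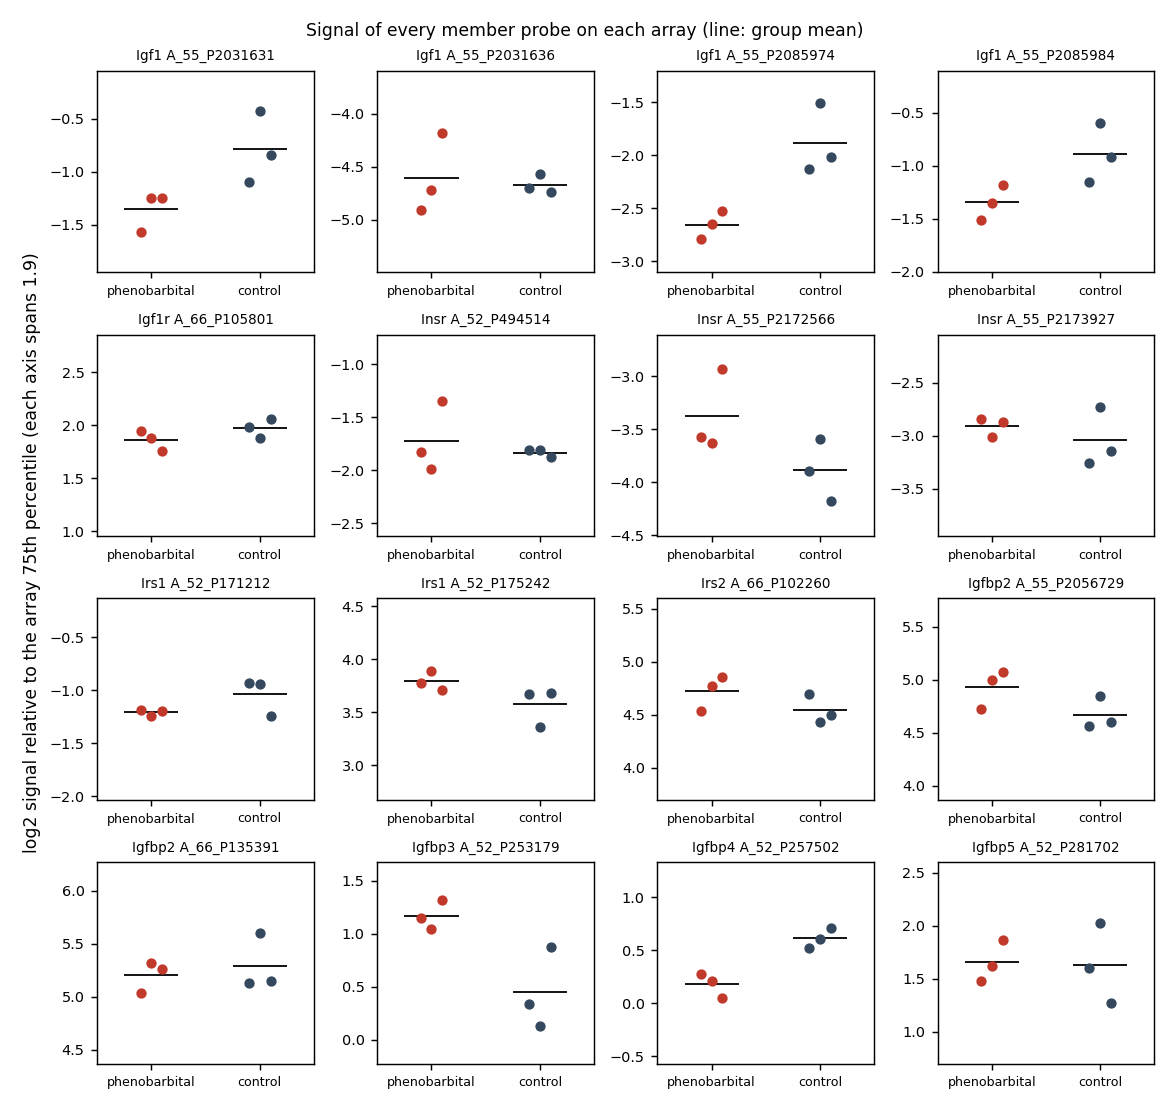
Log2 signal relative to the array's 75th percentile (vertical axis) of each of the 16 member probes, with 1 point per array, phenobarbital in red and control in dark blue, and a line at the group mean. The groups are separate for 3 of the 4 Igf1 probes, for 1 Irs1 probe, for Igfbp3 and for Igfbp4, and overlap for the other 10 probes.

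The ligand gene Igf1 (chromosome 10, 87858265 to 87937047 in the GRCm38.p6 RefSeq table) was read by 4 probes that carry the same accession. On A_55_P2085974 its log2 signal was -2.79, -2.65 and -2.52 in phenobarbital replicates 1 to 3, against -2.13, -1.51 and -2.02 in control replicates 1 to 3. Every phenobarbital array lay below every control array, and control replicate 2 was the highest. The probe fell by 0.77 ± 0.19 on the log2 scale (SE, n = 3 per group), 0.587-fold (95% interval 0.430 to 0.802), with an adjusted p of 0.0417 over all probes (limma). On A_55_P2031631, the brightest Igf1 probe and the one in the fit over names, the values were -1.57, -1.25 and -1.25 with phenobarbital and -1.10, -0.43 and -0.84 in controls. These groups did not overlap either, and the log2 fold change of -0.56 ± 0.20 did not pass (adjusted p = 0.0953 over names). A_55_P2085984 gave -1.51, -1.35 and -1.18 with phenobarbital and -1.16, -0.60 and -0.92 in controls, a log2 fold change of -0.45 ± 0.17 (adjusted p = 0.122 over probes). Phenobarbital replicate 3 and control replicate 1 nearly met on this probe. A_55_P2031636, the dimmest of the 4, did not show the difference, with -4.91, -4.72 and -4.18 with phenobarbital and -4.70, -4.57 and -4.74 in controls. Its log2 fold change was 0.07, with a 95% interval of -0.41 to 0.55.

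The Igf1 difference was smaller within slide 1, where control replicate 1 alone stands against the 3 phenobarbital arrays. With the slide as a block the log2 fold changes of A_55_P2085974, A_55_P2031631 and A_55_P2085984 were -0.52, -0.25 and -0.19, and none passed (limma, adjusted p = 0.194, 0.476 and 0.575). Over 19 alternatives A_55_P2085974 passed in 9, with adjusted p-values of 0.00677 to 0.194, and the other pair of probes in none, with 0.0580 to 0.476 and 0.0590 to 0.575. Without control replicate 2, A_55_P2085974 had a log2 fold change of -0.58 and passed. It did not pass without any 1 of the other 5 arrays, with log2 fold changes down to -0.89. In embryonic brain Igf1 RNA is known from mesenchymal, vascular and microglial cells as well as neural ones. The marker sums of those cells, given with the other cell types, were lower on every phenobarbital array than on any control array. So were the sums of neurons, red blood cells and progenitors, while the choroid plexus sum was higher. For microglia and progenitors the separation rested on the brightest marker alone. The part of any of these cells in the Igf1 values was not tested. In the endothelial list and in the microglial list, 4 genes each had a positive log2 fold change.

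The receptor genes did not pass on any probe. Igf1r, the gene for the main signalling receptor (chromosome 7, 67952257 to 68233668), was read by 1 probe with log2 signals of 1.95, 1.88 and 1.75 in phenobarbital replicates and 1.98, 1.88 and 2.06 in controls. The groups overlapped, and the fold was 0.923 (95% interval 0.768 to 1.11, adjusted p = 0.477 over names in limma), which leaves out a halving or a doubling of this probe's signal. Insr, the insulin receptor gene (chromosome 8, 3150922 to 3279649), was read by 3 probes. Its brightest probe gave -1.83, -1.99 and -1.35 with phenobarbital and -1.81, -1.81 and -1.88 in controls, a log2 fold change of 0.11 ± 0.18. Phenobarbital replicate 3 was the highest array and the controls lay close together. The other Insr probes, A_55_P2172566 and A_55_P2173927, had log2 fold changes of 0.51 ± 0.24 and 0.14 ± 0.16 (adjusted p = 0.181 and 0.580 over probes). On A_55_P2172566 phenobarbital replicate 3 was again the highest, at -2.93, while the other 2 phenobarbital arrays lay at -3.57 and -3.62 beside control replicate 2 at -3.59.

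The substrate genes Irs1 (chromosome 1, 82233105 to 82291439) and Irs2 (chromosome 8, 10984681 to 11008929) did not pass either. The 2 Irs1 probes pointed in opposite directions. The brighter one, A_52_P175242, gave 3.78, 3.89 and 3.71 with phenobarbital against 3.68, 3.36 and 3.68 in controls. Its groups did not overlap, though the nearest arrays almost met, and its fold was 1.16 (95% interval 0.936 to 1.45, adjusted p = 0.266 over names in limma). The dimmer one, A_52_P171212, gave -1.19, -1.24 and -1.20 with phenobarbital and -0.93, -0.94 and -1.24 in controls, a log2 fold change of -0.17 ± 0.12. The phenobarbital arrays were tightly grouped there and met control replicate 3. Irs2 was read by 1 probe, with 4.54, 4.77 and 4.86 in phenobarbital replicates and 4.70, 4.44 and 4.50 in controls. Its groups overlapped and its fold was 1.13 (0.902 to 1.41).

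**Figure D2:**
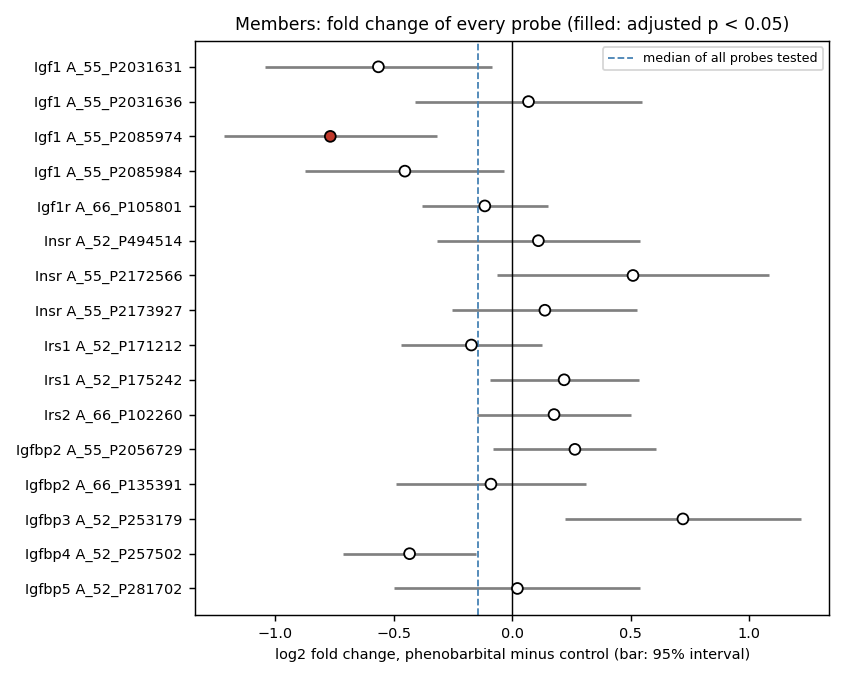
Log2 fold change of phenobarbital minus control (horizontal axis) for each of the 16 member probes, with its 95% interval from the fit over all probes. The filled point is the 1 probe with an adjusted p below 0.05, Igf1 A_55_P2085974, and the dashed line is the median of all probes tested, -0.14.

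Of the 4 binding protein genes, Igfbp4 fell and the other 3 did not pass. IGFBP4 is a secreted inhibitor of IGF action and a substrate of PAPP-A. Igfbp4 (chromosome 11, 99040005 to 99052655) had log2 signals of 0.28, 0.21 and 0.05 in phenobarbital replicates against 0.52, 0.61 and 0.71 in controls. Every phenobarbital array lay below every control array, with an SD of 0.12 in the phenobarbital group and 0.098 in the control group. The gene fell by 0.43 ± 0.11 on the log2 scale (limma, adjusted p = 0.0480 over names), 0.741-fold with a 95% interval of 0.610 to 0.899. In the fit over all probes the same probe had an adjusted p of 0.0522 and did not pass. Relative to the median of all names, Igfbp4 lay 0.27 lower. The call was lost without each of the 6 arrays in turn, with log2 fold changes of -0.48 to -0.37, and with the slide as a block, where the log2 fold change was -0.34 (adjusted p = 0.315 over probes). Over all 20 alternatives of processing the gene passed in 8, with adjusted p-values of 0.0260 to 0.306, and its probe kept its negative sign in 19 of 19.

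Igfbp3, the gene for the main IGF carrier of adult serum (chromosome 11, 7206086 to 7215498), stood above every other member probe in log2 fold change and did not pass. Its log2 signals were 1.15, 1.05 and 1.32 in phenobarbital replicates and 0.34, 0.13 and 0.88 in controls. Each phenobarbital array was above each control array, and control replicate 3 was nearest to them. The log2 fold change was 0.72 ± 0.20, 1.65-fold (95% interval 1.17 to 2.32, adjusted p = 0.0582 over names in limma). Without control replicate 3 the log2 fold change was 0.93 and passed. It also passed with an intensity trend in the variance prior and with array weights, 3 of 20 alternatives in all, with adjusted p-values of 0.0187 to 0.160. With the slide as a block it was 0.83 (adjusted p = 0.0864 over probes).

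Igfbp2 and Igfbp5 lie next to each other on chromosome 1 (72824480 to 72852474 and 72858065 to 72874865). Igfbp2, a binding protein gene expressed in embryonic neuroepithelium and choroid plexus, was read by 2 probes that pointed in opposite directions. The brighter, A_66_P135391, gave 5.04, 5.32 and 5.26 with phenobarbital and 5.14, 5.60 and 5.15 in controls, a fold of 0.940 (0.712 to 1.24). The other, A_55_P2056729, gave 4.73, 5.00 and 5.08 with phenobarbital and 4.56, 4.85 and 4.60 in controls, a fold of 1.20 (0.946 to 1.52). Control replicate 2 was the highest control on both probes, above all phenobarbital arrays on A_66_P135391 and among them on A_55_P2056729, and the groups overlapped on both. Igfbp5, whose protein binds extracellular matrix and is another substrate of PAPP-A, gave 1.48, 1.63 and 1.87 with phenobarbital and 1.61, 2.03 and 1.27 in controls. Its groups overlapped fully and its fold was 1.02 (0.709 to 1.45).

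**Figure D3:**
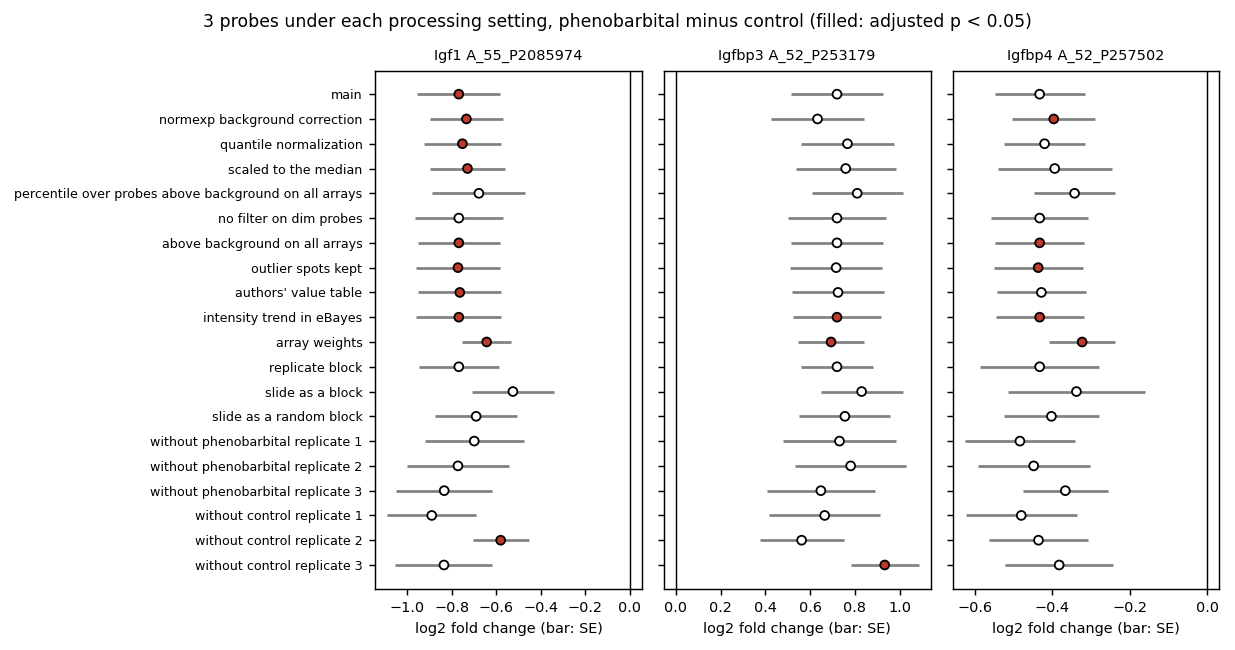
Log2 fold change of phenobarbital minus control (horizontal axis, bar: SE) of 3 probes under the settings listed at the left, with filled points where the adjusted p over all probes was below 0.05. Igf1 A_55_P2085974 and Igfbp4 stayed below 0 and Igfbp3 above 0 in every setting shown, while the side of the threshold changed with the setting.

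The sequences before the annotated start of Igf1, Igfbp3 and Igfbp4 are shown because these are the members that stood furthest apart between the groups. They come from RefSeq (GRCm38.p6), are 250 bases long, run 5′ to 3′ on the gene's strand and end at the base before the start listed there, which for all 3 lies inside the gene's outermost limits. Capitals mark the motifs searched on both strands, which were the TATA box (TATAAA), the CCAAT box (as spelled), the GC box (GGGCGG) and the forkhead core (TGTTTAC), the last because FOXO factors act downstream of Akt. The motifs do not overlap each other in the windows shown.
Igf1: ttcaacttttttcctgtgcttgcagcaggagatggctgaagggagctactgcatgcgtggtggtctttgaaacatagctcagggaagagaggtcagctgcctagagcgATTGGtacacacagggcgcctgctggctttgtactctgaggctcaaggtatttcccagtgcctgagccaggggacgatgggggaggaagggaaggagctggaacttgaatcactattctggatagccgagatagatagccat
Igfbp3: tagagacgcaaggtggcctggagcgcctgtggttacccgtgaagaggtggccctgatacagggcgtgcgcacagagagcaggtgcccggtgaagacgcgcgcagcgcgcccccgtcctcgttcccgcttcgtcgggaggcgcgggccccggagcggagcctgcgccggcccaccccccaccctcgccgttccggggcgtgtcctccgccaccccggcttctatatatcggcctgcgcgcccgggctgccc
Igfbp4: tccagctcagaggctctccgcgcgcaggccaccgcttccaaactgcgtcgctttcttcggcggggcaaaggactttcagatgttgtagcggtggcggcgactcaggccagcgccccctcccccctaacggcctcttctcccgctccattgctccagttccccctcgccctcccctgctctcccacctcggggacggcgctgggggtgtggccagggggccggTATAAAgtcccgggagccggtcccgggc
Igf1 lies at chr10:87860861-87861110 on the plus strand, Igfbp3 at chr11:7213924-7214173 on the minus strand and Igfbp4 at chr11:99040994-99041243 on the plus strand. Igfbp4 holds a TATAAA from 28 to 23 bases before the start, a motif in 12.4% of the 32851 windows of this length. Igf1 holds a CCAAT on the opposite strand, found in 33.8% of windows. None of the 4 motifs, searched only as spelled, occurs in the Igfbp3 window, where a tatatat near the end was not counted. Their GC content was 52.8% for Igf1, 73.2% for Igfbp3 and 69.2% for Igfbp4, beside a median of 52.4%, and they held 5, 32 and 22 CpG dinucleotides beside a median of 6. Of the 9 members, 8 had a window in the table, 9 windows in all because Igfbp2 has 2. TGTTTAC occurred in 0 of these 9 and in 3.2% of all windows, and GGGCGG in 4 of 9 and 32.7%.

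The rest of the pathway was read from 4 lists that leave the members out. They hold 60 genes, of which 59 were tested. The test called 5 as rises and 5 as falls and left 49 uncalled, and the groups did not overlap for 30, where this held for 44.1% of all names. Their median log2 fold change was -0.24, beside -0.16 for all names. The 10 calls of 59 stand beside the 16.7% of all names that were called.

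Among 13 other ligands, receptors, binding proteins and proteases tested, Stc1 rose, Igfbp7 fell and 11 did not pass, with a median log2 fold change of -0.36. Stc1 encodes stanniocalcin-1, a secreted glycoprotein known to inhibit PAPP-A, the protease that cuts IGFBP4 and IGFBP5. Its log2 signals were -2.16, -2.43 and -2.11 with phenobarbital and -3.70, -3.72 and -3.48 in controls, a gap wider than the range of either group. The probe was dim in controls, at 84.4 to 108 intensity units against 344 to 418 with phenobarbital, though well above background on every array. Stc1 rose by 1.40 ± 0.13 on the log2 scale, 2.65-fold (limma, adjusted p = 0.00383), and it passed in all 20 alternatives, with log2 fold changes of 0.90 to 1.50. With the slide as a block it had 1.47 (limma, adjusted p = 0.0325, in a range of 0.000664 to 0.0393 over the alternatives). Pappa and Pappa2, the genes of the proteases that stanniocalcins inhibit, had log2 fold changes of -0.36 ± 0.22 and -0.41 ± 0.18 and did not pass.

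Igfbp7 encodes a secreted, vessel-associated relative of the IGF-binding proteins. It had log2 signals of -5.15, -5.46 and -5.48 with phenobarbital and -4.69, -3.30 and -3.97 in controls, and the control arrays spread more widely. It fell by 1.38 ± 0.34 on the log2 scale (limma, adjusted p = 0.0413), 0.385-fold. Its only probe was dim, at 40.3 to 51.7 intensity units with phenobarbital and 49.8 to 113 in controls, though well above background on every array. Within slide 1 it had -0.67 and was not called (limma, adjusted p = 0.154), and over 20 alternatives it passed in 10, with adjusted p-values of 0.0196 to 0.154. Igf2r, the gene of the receptor that clears IGF2 to lysosomes, had 1.19, 1.21 and 1.18 with phenobarbital and 1.60, 1.62 and 1.45 in controls. Its groups did not overlap and its log2 fold change was -0.36 ± 0.10, on the other side of the threshold (adjusted p = 0.0525). Igf2, the main IGF ligand of the embryo, had 0.85, 0.60 and 0.68 with phenobarbital and -0.01, 1.11 and 0.39 in controls. The control arrays lay on both sides of the phenobarbital arrays, and the log2 fold change was 0.21 ± 0.28 (adjusted p = 0.613).

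Of 24 genes for adaptors, phosphatases and the PI3K-Akt relay, 2 rose, 3 fell and 19 did not pass, with a median log2 fold change of -0.19. Pik3r1, the gene for the regulatory subunit of PI3 kinase that docks on IRS proteins, rose by 0.55 ± 0.12 (limma, adjusted p = 0.0294). Ptpn1, the gene of a phosphatase that switches off the insulin receptor, rose by 0.49 ± 0.13 (0.0489), with 0.23 on its other probe. Its brightest probe did not pass in the fit over all probes (limma, adjusted p = 0.0527). Trib3, whose pseudokinase product binds Akt, fell by 0.76 ± 0.13 (0.0179). The adaptor gene Sh2b1 fell by 0.39 ± 0.10 (0.0437). Trib3 passed in 13 of 20 alternatives, Pik3r1 in 12, Sh2b1 in 8 and Ptpn1 in 7.

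Of 19 genes of the mTOR, GSK3 and FOXO branches, 2 rose, 1 fell and 16 did not pass, with a median log2 fold change of -0.30. Mtor, the gene for the kinase of both mTOR complexes, had log2 signals of 0.08, -0.02 and 0.06 with phenobarbital and -0.79, -0.68 and -0.68 in controls. The gap between the groups was wider than the range of either, and Mtor rose by 0.76 ± 0.10, 1.69-fold (limma, adjusted p = 0.00807). It passed in 18 of 20 alternatives, the exceptions being the blocks for replicate and for slide. Deptor, the gene of an mTOR inhibitor, rose by 0.72 ± 0.17 (0.0399), though with normexp background correction it had 0.28 and did not pass. Its probe was dim, at 179 to 250 intensity units with phenobarbital and 65.4 to 93.0 in controls. Rps6, the ribosomal protein gene whose product is a target of S6 kinase, fell by 0.37 ± 0.10 (0.0482), and after quantile normalization turned to 0.11. The same Rps6 probe did not pass in the fit over all probes (limma, adjusted p = 0.0535). Deptor passed in 9 of 20 alternatives and Rps6 in 5. None of the 3 genes for RNA-binding proteins of Igf2 mRNA passed, with log2 fold changes of 0.27 ± 0.11 for Igf2bp1, -0.12 ± 0.14 for Igf2bp2 and 0.22 ± 0.28 for Igf2bp3. With every probe tested, dimmer probes of Grb2 and Gsk3b rose by 0.74 and 1.24 and 1 of Foxo1 fell by 0.70, while none of the 3 passed on its brightest probe. The brighter probes of Grb2 (-0.31) and Gsk3b (-0.15 and -0.36) had the opposite sign. These 3 were picked out after their values were seen.

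**Figure D4:**
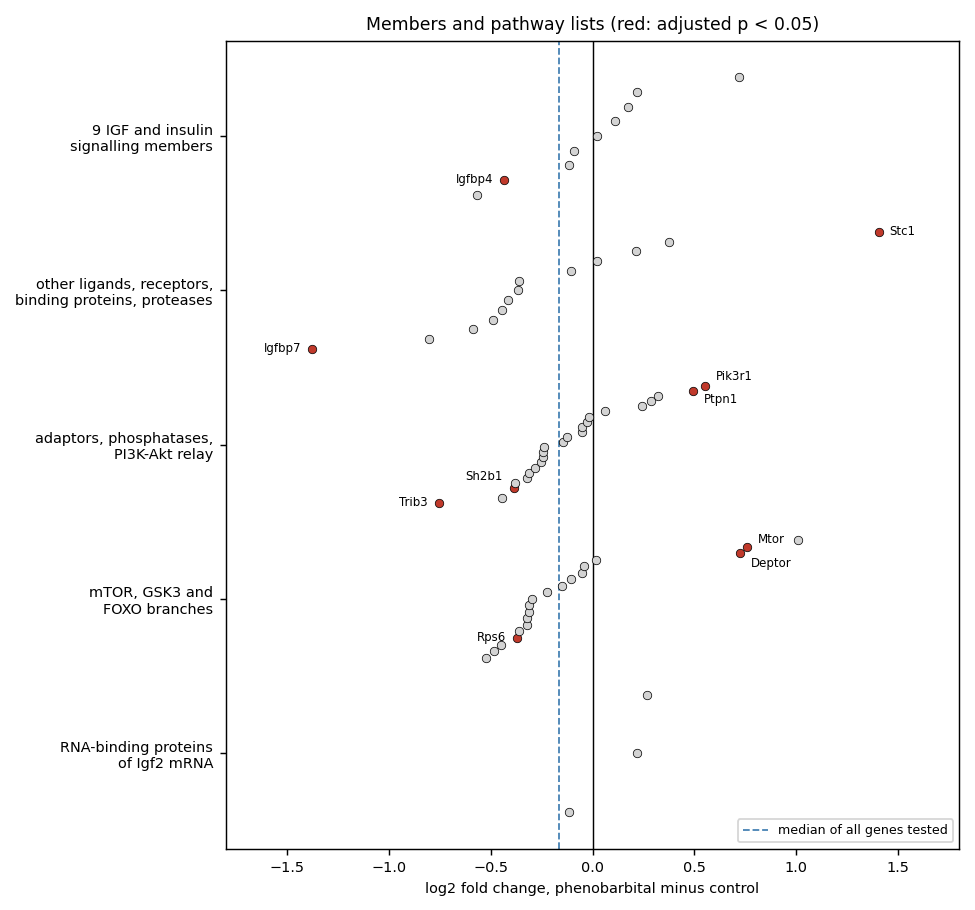
Log2 fold change of phenobarbital minus control (horizontal axis) of the 9 members and of the tested genes in 4 further lists, except 1 not reported here, with 1 point per gene on its brightest probe. Red points with names had an adjusted p below 0.05 over all names, and the dashed line is the median of all names, -0.16.

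Summed markers of other cells differed between the groups. The sums were computed only with the 75th percentile scaling, where the median log2 fold change of all names was -0.16. That median was -0.07 after quantile normalization and with the percentile over probes above background on all arrays. How far the sums depend on the scaling was not tested. Beside the calls counted in each marker list, 6.24% of all names were called as rises and 10.5% as falls. The summed signal of the 13 mural and meningeal markers, in multiples of the array's 75th percentile, was 32.9 to 40.1 on phenobarbital arrays against 58.7 to 63.8 on control arrays, and 7 of 13 genes fell. Endothelial markers summed to 52.0 to 62.0 with phenobarbital and 85.9 to 91.3 in controls, with 4 of 12 falling. Another 4 had positive log2 fold changes that did not pass: Pecam1 (0.71, groups not overlapping), Tek (0.71), Eng (0.43) and Tie1 (0.28). Microglial and macrophage markers summed to 30.6 to 36.7 with phenobarbital and 40.8 to 55.6 in controls, with 4 of 11 falling and 1 rising. Without its brightest gene, Itgam, an integrin gene of myeloid cells whose other probes had log2 fold changes of -0.28 and 0.00, this list summed to 10.2 to 13.1 with phenobarbital and 10.8 to 13.0 in controls, which overlap. These sums were lower with phenobarbital, as were the signals of Igf1, Igfbp4 and Igfbp7. None of their markers was below background on every array, and their part in the results for Igf1, Igfbp4 and Igfbp7 was not tested.

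Choroid plexus markers moved in the direction of Igfbp3 and Stc1, summing to 12.4 to 24.1 with phenobarbital and 2.94 to 5.33 in controls, with 5 of 7 tested genes rising. Among these 5, Kcne2 was well above background on no control array and entered the test through the phenobarbital arrays alone. Enpp2 and Aqp1, the tested genes that did not rise, had log2 fold changes of -0.35 and -0.04. Of the 8 listed, 6 were above background on every array, and their part in the values of Igfbp3 and Stc1 was not tested. Red cell markers summed to 721 to 813 with phenobarbital and 1091 to 1753 in controls, with 5 of 11 falling. Neuronal markers summed to 149 to 179 with phenobarbital and 237 to 260 in controls, with 5 of 8 falling. Progenitor markers summed to 415 to 491 with phenobarbital and 520 to 576 in controls, with 1 rising and 1 falling among 11. Without their brightest gene, Vim, which encodes the filament protein vimentin, they summed to 240 to 302 with phenobarbital and 268 to 322 in controls, which overlap, and the list's median log2 fold change was -0.15, beside -0.16 for all names. The sums of the other 5 lists still did not overlap between the groups without the brightest gene of each, a check added after the data were seen.

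**Figure D5:**
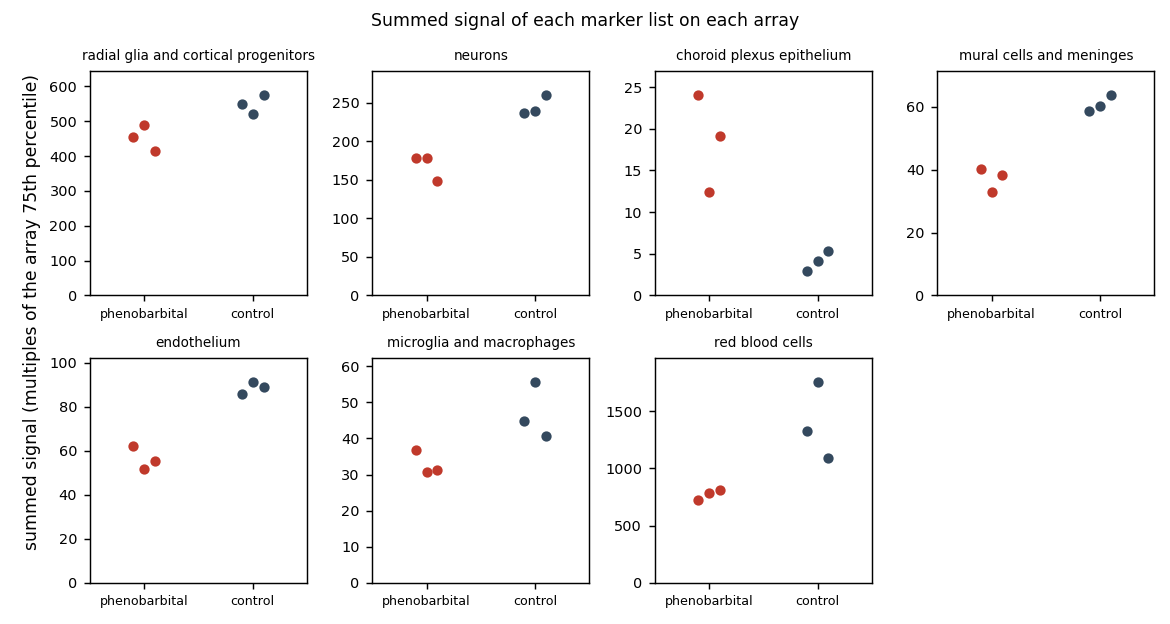
Summed signal of each marker list (vertical axis, multiples of the array's 75th percentile) with 1 point per array, phenobarbital in red and control in dark blue. The choroid plexus list is higher and the other 6 lists are lower on the phenobarbital arrays, of which the progenitor and microglial lists overlap once the brightest gene is left out.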

How the data were processed

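Per the file headers, the authors scanned 1-colour Cy3 arrays and used Feature Extraction 10.7.3.1 by Agilent (10.7 per the submitters' processing notes), with array annotation on mm9, from 0.2 µg of RNA per the labels. The deposited scanner values are intensity after background subtraction and spatial detrending, not scaled across arrays. A deposited value table holds the authors' log2 values, whose differences between arrays equal those of the scanner files with 1 factor per array removed. The constant on which each probe was centred is unknown, and its column medians ran from -0.09 to 0.10. Samples were grouped by title.

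Computed here were log2 signals minus each array's 75th percentile over spots that were neither controls nor outliers, averaged over spots of a probe (4 Igf1 probes had 2 spots per array). Probes were kept that were well above background throughout 1 group or both and had at least 2 values per group. Names came from RefSeq accessions (26582 of 55681 probes matched), and where a gene had several probes the brightest entered the fit over names. limma 3.58.1 in R 4.3.3 compared the groups with no covariates and was tested on simulated data. Log2 fold changes are phenobarbital minus control. Normexp used the median spot and background signals, with an offset of 50.

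Named were all members, every pathway gene past the threshold (at most 8 per list), and Igf2 and Igf2r; Pappa, Pappa2 and the Igf2bp genes were added to complete a list or role, after their values were seen. Of the pathway genes past the threshold, 1 is counted but not reported here. The members, lists and tests were chosen with earlier results of these data known. The alternatives changed background correction, scaling, filter, outlier spots, probe choice, variance prior, array weights and value source, blocked on the replicate number or on the slide, and dropped each array in turn. They were applied to the pathway genes after the data were seen. Same-numbered arrays did not deviate together (correlations of 0.08, -0.16 and -0.35), but so few arrays cannot decide whether the numbers pair the samples. The number of arrays limits the precision.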

Additional observations from a re-analysis of the deposited data

How the results depend on the processing

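Of 304 probe values for the members under alternatives, 271 kept their sign and their side of the threshold, 10 lost and 8 gained a call, and 15 changed sign, none of these 15 on a probe that passed. Against 1 member gene called, there were 0 with scaling to the median, with the percentile over probes above background on all arrays, without a filter on dim probes, with the slide as a block or as a random block, and 2 with an intensity trend or array weights; leaving out 1 array gave 0 to 1. Against 1 member probe, there were 0 with that percentile, without a filter and with either slide block, 2 with normexp, with probes above background on all arrays and with outlier spots kept, and 3 with a trend or array weights; leaving out 1 array gave 0 to 1. With the replicate block, 0 member genes and 0 member probes passed, and 295 names in all against 4232. Not every array correlated best with its own number, but so few arrays cannot decide whether the numbers are a pairing. The names called numbered 872 to 4458 when 1 array was left out, 1486 without a filter, 2502 with scaling to the median (1435 rises and 1067 falls, against 1579 and 2653), 2721 with the percentile over probes above background (1612 and 1109), 2965 after quantile normalization (1591 and 1374), 6485 with normexp (1523 and 4962), 9438 with array weights and 771 with the slide block. The median over all names ran from -0.21 to -0.07.

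Sign changes were as follows. Igf1 A_55_P2031636 had -0.26 with normexp, -0.078 with array weights and -0.14 to 0.22 with 1 array left out. Igf1r had 0.029 with normexp. Insr A_52_P494514 had -0.016 with array weights and -0.077 to 0.24 with 1 array left out, and A_55_P2173927 had -0.16 with normexp. Irs2 had -0.0049 with array weights. Igfbp2 A_66_P135391 had 0.16 after quantile normalization, 0.00041 with the percentile over probes above background, 0.069 with the slide block and -0.17 to 0.064 with 1 array left out, and the mean of both Igfbp2 probes had 0.087. Igfbp5 had -0.044 with normexp and -0.16 to 0.22 with 1 array left out. Igf2 had -0.038 to 0.52 with 1 array left out, and Rps6 had 0.11 after quantile normalization. The causes were not tested. Pathway calls numbered 1 with either the replicate or the slide block, 3 without a filter, 5 after quantile normalization 25 with array weights and 2 to 10 with 1 array left out, against 10.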
